A study of Homo sapiens with 4 samples.

Results

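The genes of the proteasome were followed through A549, an established line of human lung adenocarcinoma cells, cultured with or without Matrigel and with normal or low oxygen. They were taken as every gene symbol made of PSMA, PSMB, PSMC, PSMD, PSME, PSMF or PSMG and a number, with a mean of at least 1 FPKM over the libraries. FPKM counts fragments per kilobase of transcript and per unit of library depth. The rule found 48 symbols among 26255, and 46 of them were among the 12663 genes that reached the minimum. PSMA8 and PSMB11, a testis and a thymus form of core subunits, were listed at 0 in all 4 libraries and lay outside it, while the lowest member, PSMB9, had a mean of 8.48 FPKM. All 46 members therefore entered every comparison, and the rule used no difference between groups.

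Wild-type A549 cells were grown for 5 days in medium with 5% serum, on a solidified Matrigel bed (3D) or directly in a dish (2D), in normoxia or in hypoxia at 1% oxygen. This gave 4 groups with 1 library each, and values are given below in the order 3D normoxia, 3D hypoxia, 2D normoxia, then 2D hypoxia unless stated otherwise. The study asked what the structures formed by these cells in 3D under hypoxia are like. Everything described comes from 1 cell line, and no library has a replicate.

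The proteasome is the protease that degrades most ubiquitin-tagged proteins of the cytosol and nucleus. Its barrel, the 20S core, is built of rings of alpha subunits (PSMA genes) around rings of beta subunits (PSMB genes), some of which carry the catalytic sites, and the 19S particle (PSMC and PSMD genes) recognises, unfolds and feeds in substrates. Interferon induces PSMB8, PSMB9 and PSMB10, which replace the constitutive catalytic subunits PSMB5, PSMB6 and PSMB7 to form the immunoproteasome and alter the peptides offered on MHC class I. PA28 (PSME1, PSME2 and PSME3) and PA200 (PSME4) open the core without ATP. PSMF1 encodes the inhibitor PI31, and PSMG genes encode chaperones of core assembly.

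Promoter sequence is shown for the interferon-inducible members, several of which had ratios above 0 in the comparisons below, and for PSMC4, the member with the largest difference between any pair of libraries. Each window holds the 250 bases before the gene's farthest upstream RefSeq start (GRCh38.p14), read 5′ to 3′ on the gene's strand. Capitals mark matches, on either strand, to a pattern of the interferon-stimulated response element (ISRE, a repeat seen in PSMB10 and PSME2 close to the start), TTCNNNGAA (the gamma-activated sequence, GAS), TGACNNNGC (antioxidant response elements, bound by NFE2L1 and NFE2L2), CCAAT (the CCAAT box) and ACGTG (the core of hypoxia response elements). The windows are PSMB8 at chr6:32844680-32844929 (minus strand), PSMB9 at chr6:32853942-32854191 (plus strand), PSMB10 at chr16:67936851-67937100 (minus strand), PSME1 at chr14:24135944-24136193 (plus strand), PSME2 at chr14:24146611-24146860 (minus strand) and PSMC4 at chr19:39970915-39971164 (plus strand).
PSMB8: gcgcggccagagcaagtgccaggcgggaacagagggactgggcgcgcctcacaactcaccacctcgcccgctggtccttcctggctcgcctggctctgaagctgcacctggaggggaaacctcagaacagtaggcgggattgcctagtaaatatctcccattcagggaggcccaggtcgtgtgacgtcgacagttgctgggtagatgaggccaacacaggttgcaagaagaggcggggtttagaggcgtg
PSMB9: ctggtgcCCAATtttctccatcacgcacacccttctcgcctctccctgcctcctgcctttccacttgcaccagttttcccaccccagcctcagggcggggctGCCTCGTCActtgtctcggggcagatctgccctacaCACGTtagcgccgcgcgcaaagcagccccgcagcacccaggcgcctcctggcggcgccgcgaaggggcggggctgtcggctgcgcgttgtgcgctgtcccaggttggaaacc
PSMB10: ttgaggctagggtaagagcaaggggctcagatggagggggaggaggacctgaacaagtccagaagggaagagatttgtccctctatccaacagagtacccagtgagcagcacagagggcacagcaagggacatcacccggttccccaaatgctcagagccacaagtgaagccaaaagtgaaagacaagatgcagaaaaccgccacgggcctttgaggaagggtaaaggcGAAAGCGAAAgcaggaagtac
PSME1: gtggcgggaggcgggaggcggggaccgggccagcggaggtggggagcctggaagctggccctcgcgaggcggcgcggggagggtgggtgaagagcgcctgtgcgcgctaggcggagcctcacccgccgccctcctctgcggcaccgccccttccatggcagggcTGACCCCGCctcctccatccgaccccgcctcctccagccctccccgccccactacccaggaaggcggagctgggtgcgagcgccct
PSME2: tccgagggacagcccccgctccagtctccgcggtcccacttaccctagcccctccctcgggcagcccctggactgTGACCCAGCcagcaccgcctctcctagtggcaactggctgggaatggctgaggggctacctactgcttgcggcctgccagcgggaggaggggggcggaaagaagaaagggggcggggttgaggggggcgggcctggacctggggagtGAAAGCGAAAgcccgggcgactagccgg
PSMC4: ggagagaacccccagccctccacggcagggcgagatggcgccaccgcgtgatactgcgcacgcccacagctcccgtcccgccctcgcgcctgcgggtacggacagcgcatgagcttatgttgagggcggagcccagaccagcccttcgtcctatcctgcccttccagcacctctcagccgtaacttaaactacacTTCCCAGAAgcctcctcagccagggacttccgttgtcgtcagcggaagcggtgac

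In these windows PSMB10 matched the ISRE pattern from 21 to 12 bases before its start, and PSME2 matched it from 28 to 19 bases before. PSMB9 matched CCAAT (243 to 239 bases before), TGACNNNGC (148 to 140) and ACGTG (112 to 108), PSME1 matched TGACNNNGC (86 to 78), PSME2 also matched TGACNNNGC (175 to 167), and PSMC4 matched TTCNNNGAA (55 to 47). PSMB8 held none of these letters in its window. No matches overlapped. A window was found for 40 of the 46 members, all but PSMA7, PSMB1, PSMB6, PSMB7, PSMD4 and PSMG3. Of the 40, 11 held TGACNNNGC (27.5%, against 11.1% of all 27305 genes with a window), 17 held CCAAT (42.5% against 33%), 8 held ACGTG (20% against 18.6%), 5 held the ISRE pattern (12.5% against 3.07%) and 4 held TTCNNNGAA (10% against 6.76%). The 5 with the ISRE pattern were PSMA4, PSMB4, PSMB10, PSME2 and PSMG4. A match describes letters in a window and not binding.

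The libraries were first set against their labels. The 8 hypoxia-induced genes used as a check all rose by limma, with CA9, a carbonic anhydrase, at 4.05, 199.7, 3.999 and 139 FPKM. KRT8, a keratin of simple epithelium, was abundant (1894 to 3731 FPKM), and EPCAM was low (1.43 to 2.73 FPKM). The keratins KRT7 (480, 742, 1122 and 1528 FPKM) and KRT19 (71.5, 87.1, 29.1 and 23.6 FPKM) differed with culture. By limma KRT7 fell and KRT19 rose in 3D, and the part of this in other results was not tested. The leukocyte genes PTPRC and CD3E were at 0.02 FPKM or less. Of the endothelial and fibroblast markers, 8 of 9 stayed under 1 FPKM in every library. Of 7 blood markers, CD68 (31.6, 31.2, 20.2 and 13.1 FPKM) and CD14 (11.4, 9.29, 10.7 and 3.44 FPKM) passed the minimum, and their part in any result was not tested. COL1A1, the remaining fibroblast marker, stood at 0.86, 0.61, 2.32 and 13.2 FPKM. Estimated depth was about 11800000, 11300000, 23900000 and 38700000 fragments, and a member rested on 68 to 12571 fragments in a library, which gave log2 ratios a counting error of 0.02 to 0.24 with a median of 0.045. Counting error covers the sampling of fragments only, and 12 members have named pseudogenes that can share their reads, PSMC1 the most with 13.

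**Figure D1:**
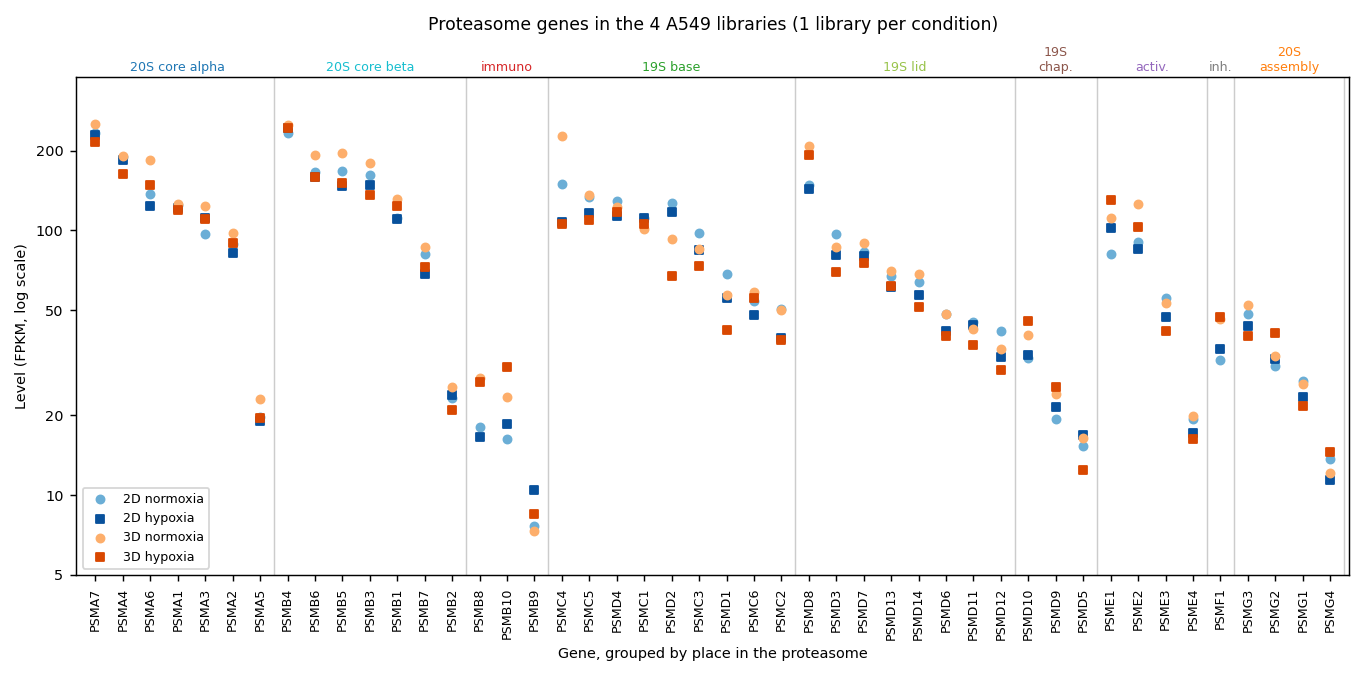
FPKM on a log axis for the 46 proteasome genes, ordered by their role in the complex, with 1 point per library. Core and regulatory particle genes lie mostly between 20 and 250 FPKM, the immunoproteasome genes lie lower, and PSMC4 shows the widest gap between libraries, from 105 to 226 FPKM.

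Proteasome transcripts made up less than 1% of FPKM in each library. Summed over the 46 members, FPKM came to 4256, 3652, 3858 and 3623, which was 0.783%, 0.613%, 0.815% and 0.697% of all FPKM in the library. The 3D hypoxia library thus had the lowest share and 2D normoxia the highest, while by the plain sum 3D normoxia was highest. FPKM is a share of a library's RNA, so fewer transcripts per cell and more of other RNA cannot be told apart.

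Subunits present in equal copies in the complex did not have equal transcript levels. Over the means of the 4 libraries, the 14 constitutive core genes ran from PSMA5 (20.4 FPKM) to PSMB4 (242.5 FPKM), an 11.9-fold range, and the 17 subunits of the 19S base and lid from PSMD12 (35.1) to PSMD8 (173), a 4.94-fold range. PSMA7, an alpha subunit, was at 251, 215, 234 and 228 FPKM and PSMB4, a non-catalytic beta subunit, at 250.4, 243, 232 and 244 FPKM, and these 2 genes took turns as the highest of the core. PSMA5, also an alpha subunit, was at 23.1, 19.5, 19.8 and 19.03 FPKM and PSMB2, a beta subunit, at 25.6, 20.97, 23.4 and 23.99 FPKM in the same libraries. The spread between subunits was therefore far wider than the differences between libraries for any 1 subunit, which reached 2.15-fold at most, between 3D normoxia and 3D hypoxia for PSMC4.

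The first comparison, hypoxia against normoxia within 3D, covered the condition in which the structures form. Most members were slightly lower in hypoxia: 37 of 46 had a log2 ratio of FPKM + 1 below 0, as did 52.0% of all 12663 genes, and their median was -0.23 against -0.02 for all genes. On the FPKM + 1 scale, at least 20% lower were 10 members (16.4% of all genes were), at least 25% higher was PSMB10 alone (17.1% of all genes), and at least 2-fold lower was PSMC4 alone (1.11% of all genes). The middle of the members' distribution was narrow, with an interquartile range of 0.24 against 0.43 for all genes. With 1 library per group this pair has no test. By counting error alone 31 members were lower and 3 higher by more than 2 errors, while 12 lay within them. These counts were made for the members only, so they cannot be set against all genes.

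In 2D the same contrast gave smaller differences in the same direction. Below 0 were 34 of 46 members (50.3% of all genes), with a median of -0.11 against -0.0019 for all genes. At least 20% lower were 3 members (16.2% of all genes) and PSMB9 alone was at least 25% higher (15.5% of all genes). Members below 0 in both cultures numbered 33 (36.7% of all genes) and members above 0 in both 8 (34.2% of all genes). The 8 were PSMB9, PSMB10, PSMC1, PSMD9, PSMD10, PSME1, PSMF1 and PSMG2, so they held members of the immunoproteasome, PA28, the inhibitor and the assembly chaperones and 1 subunit of the 19S base. Rescaling each library to a sum of 1000000 moved the median ratio of all genes to -0.14 in 3D and -0.13 in 2D and that of the members to -0.36 and -0.24, so the gap between them changed little. On that scale 40 of 46 members were below 0 in each culture, and of the 8 above 0 in both only PSMB9, PSMB10 and PSME1 were still so. At least 20% lower there were 27 members in 3D (28.7% of all genes on that scale) and 13 in 2D (28.4% of all genes), in place of 10 and 3, and at least 25% higher were 0 in either (13.0% and 10.9% of all genes).

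**Figure D2:**
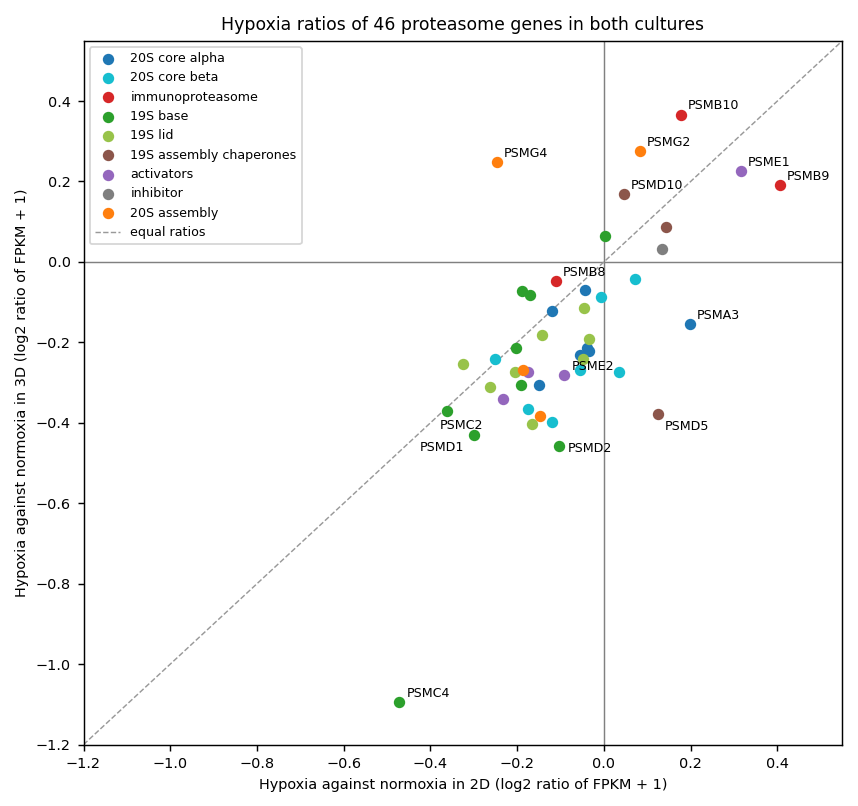
Each point is 1 of the 46 proteasome genes, with its log2 ratio of hypoxia to normoxia in 2D on the horizontal axis and in 3D on the vertical axis, coloured by role. Core and 19S genes sit mostly in the lower left, PSMC4 lies lowest at -1.09 in 3D and -0.47 in 2D, and PSMB9, PSMB10 and PSME1 lie in the upper right.

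All 14 constitutive core genes had ratios below 0 in 3D (52.0% of all genes), with a median of -0.23. In 2D 11 of 14 were below 0 (50.3% of all genes), and the median of the 14 was -0.05. Summed FPKM of the 14 differed by -13.7% in hypoxia in 3D and by -3.36% in 2D. Among the alpha subunits, which form the gate of the barrel, PSMA6 was lowest in 3D by ratio, at 184, 149, 137 and 123 FPKM (log2 ratios -0.31 in 3D and -0.15 in 2D). It was highest in 3D normoxia and lowest in 2D hypoxia. PSMA1 was nearly level at 126, 119.6, 125 and 121 FPKM, with ratios of -0.07 and -0.04. PSMA3 differed in sign between the cultures, at 123, 110.5, 96.9 and 111 FPKM with ratios of -0.15 and 0.20, so 2D normoxia was the library that stood low. Its antisense neighbour PSMA3-AS1 was listed at 16.4, 15.6, 15.1 and 16.4 FPKM, and the sources used here do not say whether the counting used strand.

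The remaining alpha subunits kept to small negative ratios in both cultures. PSMA2 stood at 97.9, 89.96, 89.1 and 81.9 FPKM, with ratios of -0.12 and -0.12. PSMA4 stood at 190.4, 164, 189 and 184 FPKM (-0.21 and -0.04). The ratios were -0.22 and -0.04 for PSMA7 and -0.23 and -0.06 for PSMA5. All 3 of PSMA4, PSMA5 and PSMA7 were highest in 3D normoxia, and 3D hypoxia was the lowest library for PSMA4 and PSMA7.

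Beta subunits showed the same picture, including the 3 that carry the catalytic threonines. PSMB5, the chymotrypsin-like subunit, was at 195, 151, 167 and 148 FPKM, with ratios of -0.37 in 3D and -0.18 in 2D. PSMB6, the caspase-like subunit, was at 192, 159, 166 and 159 FPKM (-0.27 and -0.06). PSMB7, the trypsin-like subunit, was at 86.3, 72.8, 81.7 and 68.5 FPKM (-0.24 and -0.25). All 3 were highest in 3D normoxia, PSMB5 and PSMB7 were lowest in 2D hypoxia, and PSMB6 was level in the hypoxia libraries. PSMB7 alone of them was about as much lower in 2D as in 3D. Of the structural beta subunits, PSMB3 had the lowest ratio in 3D, at 180.1, 137, 162 and 149 FPKM (-0.40 and -0.12). PSMB1 stood at 132, 124, 111 and 110.4 FPKM (-0.09 and -0.007). PSMB4 and PSMB2 were slightly higher in 2D hypoxia than in 2D normoxia (ratios of 0.07 and 0.04) and lower in 3D (-0.04 and -0.27), and both ratios in 2D were below 0 after rescaling to a common sum.

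Most transcripts of the 19S particle had ratios below 0 in hypoxia in both cultures. Of its 17 base and lid genes 16 were below 0 in each (52.0% and 50.3% of all genes in 3D and 2D). Their medians were -0.25 in 3D and -0.19 in 2D for all 17. The sum of their FPKM differed by -19.5% in 3D and by -11.9% in 2D. PSMC1, an ATPase of the base, was the exception in both, at 101, 106, 111 and 111 FPKM with ratios of 0.07 and 0.003, which after rescaling to a common sum were also below 0.

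PSMC4, another of the ATPases that unfold substrates, had the largest difference of all members. It was at 226, 105, 149 and 107 FPKM, a difference of -53.4% in hypoxia in 3D and -28.1% in 2D (log2 ratios -1.09 and -0.47). The 3D normoxia library stood well above the other 3, and both hypoxia libraries were at nearly the same level. The counting error of its ratio was 0.04 in 3D and 0.03 in 2D. Averaged over both cultures, the limma effect of hypoxia was -0.78 ± 0.18 (SE), adjusted p = 0.0713 by limma, so it did not pass.

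No other ATPase came near that size. PSMC2 was at 50.1, 38.5, 50.6 and 39.2 FPKM, with almost equal ratios of -0.37 in 3D and -0.36 in 2D, and it was lower in both hypoxia libraries than in both normoxia libraries. PSMC3 likewise had ratios of -0.21 and -0.20. PSMC6 was at 58.7, 55.4, 54.02 and 47.9 FPKM (-0.08 and -0.17). PSMC2 and PSMC3 thus repeated their ratio from culture to culture within 0.01, which for PSMC4 differed by -0.62. The limma SE of a gene rests in part on this difference, and was 0.18 for PSMC4 and 0.11 for PSMC2.

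PSMD1 and PSMD2 encode the large scaffold subunits of the base that dock ubiquitin receptors and shuttle factors. PSMD1 was at 57.1, 42.1, 68.5 and 55.5 FPKM, lower in hypoxia in both cultures (-0.43 and -0.30). PSMD2 was at 92.7, 67.2, 127 and 118 FPKM, with ratios of -0.46 in 3D and -0.10 in 2D. PSMD4, the ubiquitin receptor of the base, was at 123, 117, 129 and 113 FPKM (-0.07 and -0.19). In 3D the ratios of the scaffold subunits were lower than that of the receptor, and for PSMD1 and PSMD2 the 3D hypoxia library was the lowest of the 4.

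All 8 lid genes were below 0 in both cultures. PSMD14, the deubiquitinase that removes ubiquitin chains before degradation, was at 68.4, 51.5, 64.02 and 56.97 FPKM, with ratios of -0.40 in 3D and -0.17 in 2D. PSMD12, a scaffold subunit of the lid, was at 35.6, 29.7, 41.8 and 33.2 FPKM (-0.25 and -0.32). PSMD11, also of the lid scaffold, was at 42.3, 36.9, 45.1 and 44.01 FPKM (-0.19 and -0.03). PSMD14 and PSMD11 were lowest in 3D hypoxia by a clear step, whereas PSMD12 was lower in both hypoxia libraries than in either normoxia library. PSMD8, the most abundant lid transcript, had the lid's ratio nearest to 0 in 3D, -0.12.

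Assembly chaperones had hypoxia ratios of both signs. Of the 3 chaperones of the 19S base, PSMD10 (gankyrin) was at 40.3, 45.5, 32.9 and 33.96 FPKM and PSMD9 at 24.05, 25.6, 19.4 and 21.5 FPKM, both slightly higher in hypoxia in each culture. Their ratios were 0.17 and 0.05 for PSMD10 and 0.09 and 0.14 for PSMD9, but 1 of each pair, 0.09 for PSMD9 in 3D and 0.05 for PSMD10 in 2D, lay below 0 on rescaling to a common sum. PSMD5, the other chaperone, was at 16.4, 12.4, 15.4 and 16.9 FPKM, lower in hypoxia in 3D (-0.38) and higher in 2D (0.12, also below 0 after rescaling).

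The PSMG genes, whose products pair to build the alpha ring, differed among themselves. PSMG1 was at 26.4, 21.7, 26.9 and 23.5 FPKM (-0.27 in 3D and -0.19 in 2D), while PSMG2, which binds it in a dimer, was at 33.7, 40.9, 30.8 and 32.6 FPKM (0.27 and 0.08, the latter below 0 after rescaling to a common sum). In 3D the partners thus had opposite signs, and so did the partners of the other dimer. PSMG3 was at 52.1, 39.8, 48.5 and 43.7 FPKM (-0.38 and -0.15) and PSMG4 at 12.1, 14.6, 13.7 and 11.4 FPKM (0.25 and -0.25). The ratios of PSMG4 had counting errors of 0.18 and 0.11, the widest of these 4 genes, and neither dimer's difference was tested.

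Of the immunoproteasome genes, PSMB9 and PSMB10 had hypoxia ratios above 0 where the core genes they replace had ratios below 0. PSMB9 was at 7.33, 8.51, 7.64 and 10.4 FPKM, higher in hypoxia in both cultures (0.19 and 0.41, counting errors 0.24 and 0.15, so the ratio in 3D lay within its counting error). PSMB10 was at 23.4, 30.5, 16.3 and 18.6 FPKM, also higher in both (0.37 and 0.18, counting errors 0.11 and 0.08). PSMB8 was at 27.7, 26.8, 18.03 and 16.6 FPKM, with ratios of -0.05 and -0.11 that lay within 2 counting errors of 0. Summed FPKM of the 3 was 58.5, 65.8, 42.0 and 45.7, higher by 12.5% in 3D hypoxia and by 8.71% in 2D hypoxia. Rescaled to a common sum, the differences were 2.59% in 3D and -0.978% in 2D. PSMB9 rested on the fewest fragments of any member, from 68 in 3D normoxia.

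Set against the constitutive subunit it replaces, each immunoproteasome transcript was a minority in every library. PSMB8 was 14.2%, 17.7%, 10.8% and 11.25% of PSMB5 in the 4 libraries. PSMB9 was 3.82%, 5.35%, 4.62% and 6.56% of PSMB6. PSMB10 was 27.2%, 41.9%, 19.98% and 27.1% of PSMB7. All 3 percentages were higher in hypoxia than in normoxia within each culture. PSMB8 itself was not higher in hypoxia in either culture, and PSMB5 was lower in both. For PSMB9 in 3D the log2 levels relative to PSMB6 were -4.53 and -4.07, with counting errors of 0.18 and 0.17. They rested on 68 and 75 fragments of PSMB9. For PSMB8 in 2D the difference between the percentages was small, with log2 levels relative to PSMB5 of -3.14 and -3.08 and counting errors of 0.07 and 0.05. PSMB10 was the nearest to its constitutive partner, with a log2 difference of -1.23 in 3D hypoxia, where PSMB10 was highest and PSMB7 was low.

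**Figure D3:**
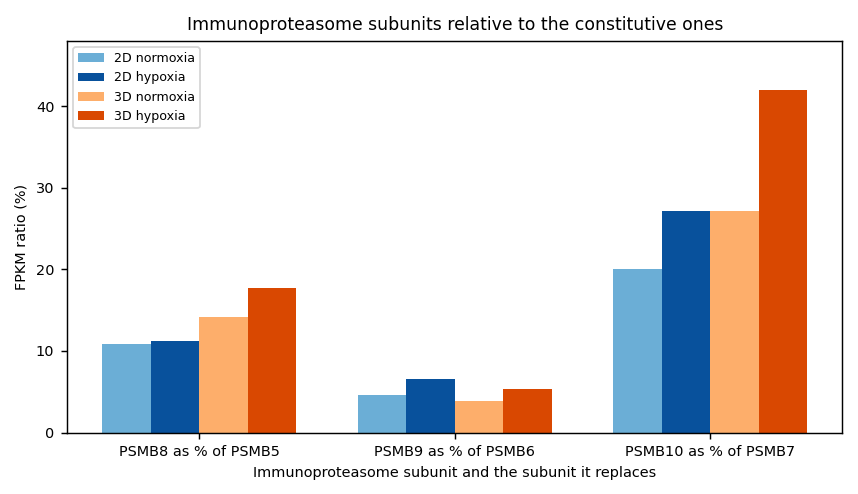
FPKM of each immunoproteasome gene as a percentage of the constitutive subunit it replaces, with 1 bar per library and no error bars. PSMB10 reaches 41.9% of PSMB7 in 3D hypoxia, PSMB8 runs from 10.8% to 17.7% of PSMB5, and PSMB9 stays between 3.82% and 6.56% of PSMB6.

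The PA28 genes parted under hypoxia in both cultures. PSME1, the alpha subunit of this interferon-inducible cap, was at 112, 131, 81.6 and 102 FPKM, higher in hypoxia in both (0.23 and 0.32). PSME2, its beta partner in the same ring, was at 125, 103, 90.6 and 85.02 FPKM, with ratios of -0.28 and -0.09. PSME1 was 89.02% and 89.99% of PSME2 in normoxia, in 3D and 2D, and 126.9% and 119.7% in hypoxia, so the order of the partners was inverted in hypoxia in both cultures. The difference of their log2 levels went from -0.17 to 0.34 in 3D and from -0.15 to 0.26 in 2D, with counting errors of 0.03 to 0.05. This ratio within a library does not depend on how libraries are scaled. PSME2 has 2 named pseudogenes, and PSME1 has none. PSME3, the nuclear PA28 gamma, and PSME4, the PA200 activator, were lower in hypoxia, at 53.1, 41.7, 55.7 and 47.2 FPKM (-0.34 and -0.23) and 19.9, 16.3, 19.4 and 17.1 FPKM (-0.27 and -0.17). PSMF1, which encodes the inhibitor PI31, was at 46.1, 47.2, 32.3 and 35.6 FPKM, with hypoxia ratios of 0.03 and 0.13, the former below 0 after rescaling to a common sum.

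Averaged over both cultures, hypoxia changed no member at an adjusted p below 0.05. By limma 0 of 46 members rose (3.20% of all genes did) and 0 fell (1.64% of all genes). At an unadjusted p below 0.05 there were 0 higher (12.9% of all genes) and 4 lower (12.7% of all genes), all of the 19S particle. They were PSMC4, PSMC2 (-0.37 ± 0.11, limma adjusted p = 0.126), PSMD1 (-0.36 ± 0.12, limma adjusted p = 0.135) and PSMD12 (-0.29 ± 0.11, limma adjusted p = 0.19). The largest positive effects were PSMB9 (0.30 ± 0.12, limma adjusted p = 0.202), PSMB10 (0.27 ± 0.12, limma adjusted p = 0.22) and PSME1 (0.27 ± 0.12, limma adjusted p = 0.229), with both cultures above 0 for each. Rescaled to a common sum, these effects were 0.19 for PSMB9, 0.15 for PSMB10 and 0.14 for PSME1. PSMC4 passed in 2 alternative settings, with limma adjusted p = 0.0493 after rescaling each library to a common sum and 0.0271 when small RNA genes and genes at 0 were left out.

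**Figure D4:**
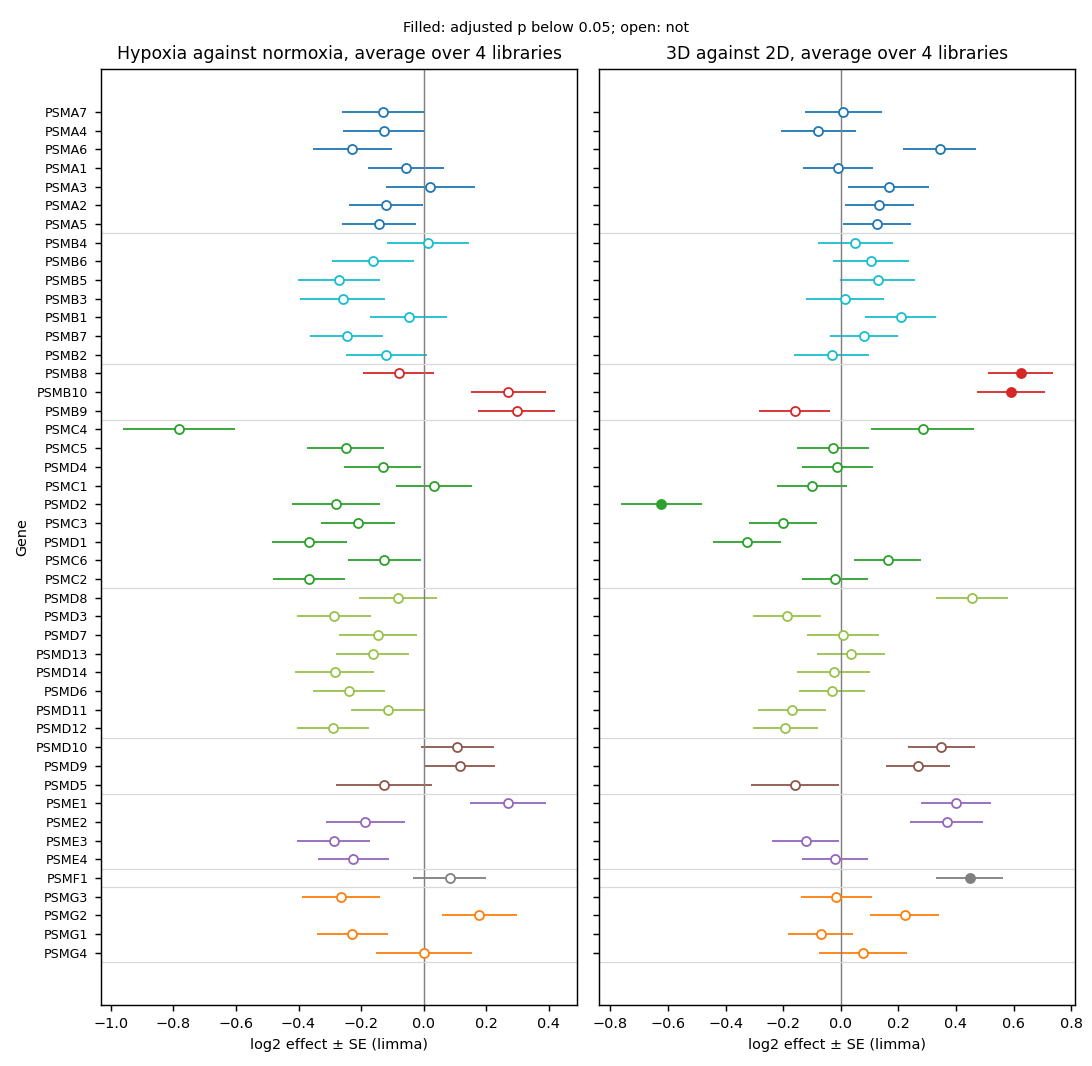
The limma log2 effect of hypoxia (left) and of 3D against 2D culture (right) for the 46 proteasome genes, averaged over the other factor, with bars of 1 SE and filled points for an adjusted p below 0.05. No gene is filled on the left, and PSMB8, PSMB10 and PSMF1 (higher in 3D) and PSMD2 (lower in 3D) are filled on the right.

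The culture comparison asked how growth on Matrigel differed from growth in a dish. PSMB8, PSMB10 and PSMF1 rose in 3D and PSMD2 fell, averaged over both oxygen levels. By limma 3 of 46 members rose (10.4% of all genes did) and 1 fell (11.6% of all genes), so both shares were below those of all genes. After rescaling each library to a common sum, limma called 1 member higher (PSMB8) and 2 lower (PSMD1 and PSMD2), and of all genes 767 higher and 3132 lower in place of 1313 and 1472. Without the filter on low values limma called no gene, and all 4 calls were lost (limma adjusted p from 0.258 to 0.312). At an unadjusted p below 0.05, 8 members were higher (18.8% of all genes) and 2 lower (21.5% of all genes).

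PSMB8 was higher in both 3D libraries than in both 2D libraries, by log2 ratios of 0.59 in normoxia and 0.66 in hypoxia, and its average effect was 0.62 ± 0.11 (SE, limma adjusted p = 0.0206). PSMB10 likewise had ratios of 0.50 and 0.69 and an effect of 0.59 ± 0.12 (limma adjusted p = 0.0258, and 0.0523 after rescaling to a common sum). PSMB9 did not share this, with ratios of -0.05 and -0.27 and an effect of -0.16 ± 0.12 (limma adjusted p = 0.373), or -0.35 after rescaling to a common sum (limma adjusted p = 0.0852). The 3 genes of the immunoproteasome thus had different orders of libraries. PSMB8 was highest in the 3D libraries, PSMB10 was highest in 3D hypoxia, and PSMB9 was highest in 2D hypoxia. PSMB8 and PSMB9 lie close together on chromosome 6, PSMB8 between TAP2 and TAP1 and PSMB9 between TAP1 and HLA-DMB. PSMB8-AS1, antisense to PSMB8, stayed below 1 FPKM. CD68 also rose in 3D (0.90 ± 0.16, limma adjusted p = 0.0209). Summed over the 7 blood markers, FPKM was 43.0 and 40.7 in 3D and 31.2 and 16.5 in 2D, 5 of them were under 1 FPKM in every library and 2 were at 0 throughout. The part of these markers in the PSMB8 and PSMB10 results was not tested.

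PSMF1 had ratios of 0.50 in normoxia and 0.40 in hypoxia and an effect of 0.45 ± 0.12 (limma adjusted p = 0.0459). This call was lost after rescaling to a common sum (limma adjusted p = 0.143) and without the variance trend (limma adjusted p = 0.0615). PSMD2 had the lowest culture ratios of all members, -0.45 and -0.80, and fell by 0.62 ± 0.14 (SE) on the log2 scale (limma adjusted p = 0.0327). It was the only member at least 20% lower in 3D at both oxygen levels (15.7% of all genes were).

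Further members had large culture ratios without passing the threshold. PSMD8 was at 209, 193, 148 and 144 FPKM, with ratios of 0.49 and 0.42 and an effect of 0.46 ± 0.13 (limma adjusted p = 0.0521). PSME1 had an effect of 0.40 ± 0.12 (limma adjusted p = 0.0651) and PSME2 of 0.37 ± 0.13 (limma adjusted p = 0.087). PSMD8 and PSME1 passed when small RNA genes and genes at 0 were left out (limma adjusted p = 0.0349 and 0.0475). Rescaled to a common sum, the effects were 0.26 for PSMD8 (limma adjusted p = 0.161), 0.21 for PSME1 (limma adjusted p = 0.235) and 0.17 for PSME2 (limma adjusted p = 0.33). PSMD10, at 0.35 ± 0.12, and PSMA6, at 0.34 ± 0.13, were also higher in both 3D libraries (limma adjusted p = 0.0824 and 0.104), and their effects on the common sum were 0.16 and 0.15. PSMD1 was lower in both, at -0.33 ± 0.12 (limma adjusted p = 0.0997, and 0.0277 after rescaling to a common sum). At least 25% higher in 3D at both oxygen levels were 5 members (13.6% of all genes): PSMB8, PSMB10, PSMD8, PSME1 and PSMF1.

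Within normoxia, 33 of 46 members were above 0 and 13 below it (52.9% of all genes were below), with a median of 0.10 against -0.03 for all genes. At least 25% higher in 3D were 9 members (21.3% of all genes) and PSMD2 alone was at least 20% lower (23.8% of all genes). All 14 constitutive core genes were above 0, from PSMA1 (0.005) to PSMA6 (0.42), with a median of 0.14, while the 17 base and lid genes had a median of -0.01, with PSMC4 (0.60) and PSMD8 at the top and PSMD2, PSMD1 (-0.26) and PSMD12 (-0.23) at the bottom. The direction of the core genes depended on scaling: rescaled to a common sum, their median was -0.05 with 6 of 14 above 0, the median of all members was -0.10 with 15 of 46 above 0, and that of all genes was -0.215. On that scale 2 members were at least 25% higher (12.8% of all genes) and 7 at least 20% lower (40.4% of all genes).

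Within hypoxia 20 members were above 0 and 26 below it (52.9% of all genes) and a median of -0.02 against -0.03, which became 0.01 when libraries were scaled by the median ratio. Rescaled to a common sum, 12 members were above 0 and 34 below it, with a median of -0.22 against -0.21 for all genes. On that scale 2 members were at least 25% higher (14.4% of all genes) and 13 at least 20% lower (40.4% of all genes). At least 25% higher in 3D were 7 members (21.9% of all genes) and 3 were at least 20% lower (24.4% of all genes). The core genes had a median of -0.0035, with 7 above 0 and 7 below (1 and 13 on the common sum, where their median was -0.20), and the sums of their FPKM differed by 0.17% between the cultures in hypoxia, against 12.1% in normoxia. The base and lid genes had a median of -0.09. The 3 members at least 20% lower were PSMD2, PSMD1 (-0.39) and PSMD5 (-0.41).

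The hypoxia and culture comparisons share libraries, and the 3D normoxia library enters both the hypoxia contrast in 3D and the culture contrast in normoxia. It was the highest of the 4 libraries for 26 of 46 members (24.0% of all genes), and 3D hypoxia was the lowest for 22 (28.3% of all genes). The lower levels in 3D hypoxia and the higher levels in 3D normoxia relative to 2D therefore rest in part on the same values. The estimated depth of the 3D libraries was less than that of the 2D libraries, and its part in these differences was not tested.

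Taking the ratio in 3D minus the ratio in 2D, the hypoxia responses of 36 members differed in the negative direction (51.8% of all genes), with a median of -0.10 against -0.01 for all genes. At least 20% lower by this measure were 4 members (12.8% of all genes) and at least 25% higher was PSMG4 alone (15.7% of all genes). The 4 were PSMC4 (-0.62), PSMD5 (-0.50), PSMD2 (-0.35) and PSMA3 (-0.35), and PSMG4 stood at 0.49. With 1 library per group no test of this difference was possible.

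**Figure D5:**
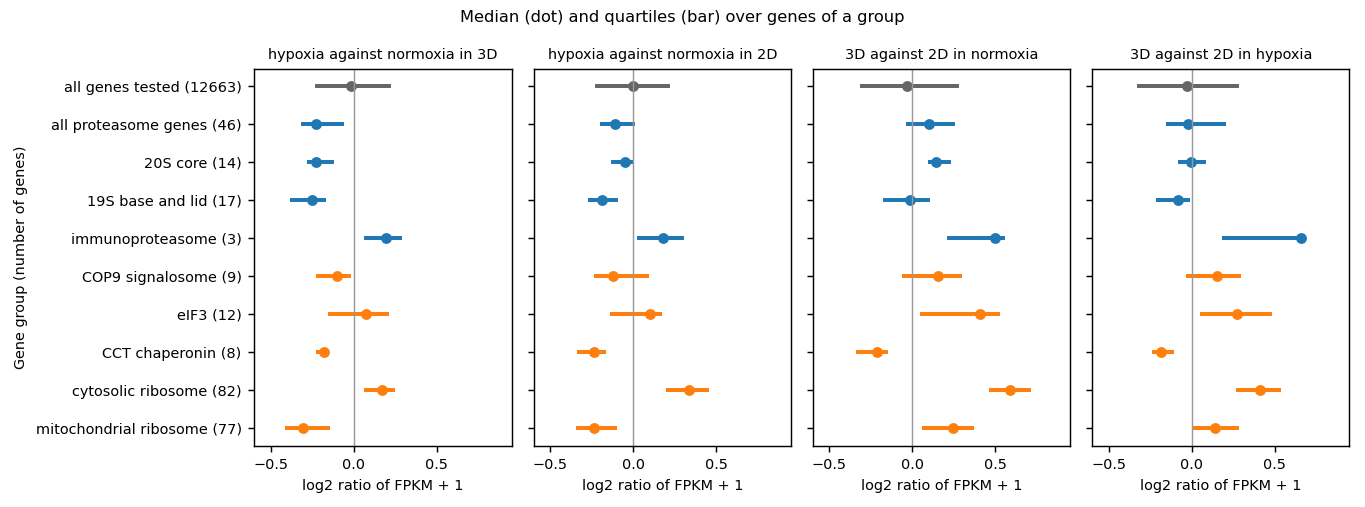
Median (dot) and quartiles (bar) of the log2 ratios of FPKM + 1 over the genes of each group, with the number of genes in brackets, for the 4 pairwise comparisons. Core and 19S genes lie left of 0 for hypoxia in 3D (medians -0.23 for the core and -0.25 for the base and lid), as mitochondrial ribosomal proteins do, and cytosolic ribosomal proteins lie right of 0 in every panel. On this scale eIF3 lies right of 0 for hypoxia (0.07 in 3D and 0.10 in 2D), and after rescaling to a common sum it lies left of it (-0.06 and -0.03).

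Other large complexes gave a scale for these differences, which were described and not tested. The 8 subunits of the CCT chaperonin, which folds actin and tubulin, were all below 0 under hypoxia in both cultures, with medians of -0.18 in 3D and -0.24 in 2D. The COP9 signalosome, whose subunits resemble those of the lid, had medians of -0.10 and -0.12. The 12 tested subunits of the translation factor eIF3, related to both, had medians of 0.07 and 0.10, which became -0.06 and -0.03 after rescaling to a common sum. Mitochondrial ribosomal proteins (77 genes) had medians of -0.31 and -0.24, and cytosolic ribosomal proteins (82 genes) 0.17 and 0.34, and neither changed side on that scale. The medians of the 31 core, base and lid genes, -0.24 in 3D and -0.12 in 2D, were thus on the same side as those of CCT, COP9 and mitochondrial ribosomal proteins and, as deposited, on the other side from eIF3 and cytosolic ribosomal proteins. By limma 0 of 8 CCT, 0 of 9 COP9 and 0 of 12 eIF3 genes changed under hypoxia. At an unadjusted p below 0.05 these were 0 higher and 1 lower for CCT, 0 and 1 for COP9, and 0 and 0 for eIF3. Of the 77 mitochondrial ribosomal protein genes 1 fell (MRPL41) and 0 rose, with 0 higher and 32 lower at an unadjusted p below 0.05, and of the 82 cytosolic ones 0 changed, with 10 higher and 1 lower. Among all genes, 3.20% rose and 1.64% fell under hypoxia by limma, and 12.9% were higher and 12.7% lower at an unadjusted p below 0.05. With culture, 28 of 82 cytosolic ribosomal protein genes rose and 0 fell, and 8 of 77 mitochondrial ones rose and 0 fell. Of the smaller complexes, 4 of 12 eIF3 genes and 1 of 9 COP9 genes (COPS2) rose, and 0 of 8 CCT genes changed. At an unadjusted p below 0.05, 0 CCT genes were higher and 2 lower with culture. Among all genes 10.4% rose and 11.6% fell with culture, and 18.8% were higher and 21.5% lower at an unadjusted p below 0.05.

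Genes that work with the proteasome but carry other names were compared in the same way. Of 11 associated factors, 0 changed under hypoxia by limma (3.20% of all genes rose and 1.64% fell). At an unadjusted p below 0.05, 1 was higher and 1 lower (12.9% and 12.7% of all genes). KIAA0368 (ECM29, which tethers the 19S particle to the core) fell by 0.51 on the log2 scale in 3D (limma adjusted p = 0.0314). POMP, the maturation factor of the core, was at 55.7, 48.03, 41.8 and 46.3 FPKM, and ADRM1, a ubiquitin receptor of the base, at 91.4, 78.5, 95.5 and 77.5 FPKM. POMP was highest in 3D normoxia, as were all 14 constitutive core genes, and ADRM1 was lower in both hypoxia libraries. Of 12 shuttle factors and p97 cofactors, SQSTM1, the autophagy receptor p62, rose in 3D by 0.84 (limma adjusted p = 0.0198), at 1099, 918, 648 and 482 FPKM. VCP, the p97 segregase itself, was at 188, 171, 256 and 216 FPKM, lower in both 3D libraries than in both 2D libraries, and did not pass. Of 6 genes for ubiquitin and its activating enzymes, 0 changed in either comparison by limma. At an unadjusted p below 0.05, 1 was higher under hypoxia (12.9% of all genes). With culture 3 were higher and 1 lower at that threshold (18.8% and 21.5% of all genes).

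Among 10 regulators of proteasome genes, NFE2L1, the factor that raises proteasome gene transcription when proteolysis is impaired, fell by 0.70 on the log2 scale in 3D (limma adjusted p = 0.0245), at 56.8, 73.9, 105 and 107 FPKM. Its small MAF partners had patterns unlike each other. MAFK, at 17.7, 49.04, 55.5 and 88.1 FPKM, rose by 1.04 under hypoxia and fell by 1.21 in 3D (limma adjusted p = 0.0477 and 0.0168). MAFG, at 30.1, 19.2, 26.5 and 17.1 FPKM, fell by 0.61 under hypoxia (limma adjusted p = 0.0459). MAFF, at 4.33, 10.46, 2.51 and 3.899 FPKM, rose in 3D by 0.91 (limma adjusted p = 0.0251). The remaining 6, among them NFE2L2 (50.4, 59.4, 40.1 and 55.3 FPKM) and the NF-Y subunits that bind CCAAT, did not pass in either comparison.

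Of 16 tested genes of interferon signalling and peptide loading, which are induced or act together with the immunoproteasome, GBP2 alone rose under hypoxia by limma, by 1.39 (limma adjusted p = 0.0107), at 3.35, 11.6, 2.62 and 7.64 FPKM. At an unadjusted p below 0.05, 7 of the 16 were higher and 1 lower under hypoxia (12.9% and 12.7% of all genes). Above 0 were 12 of 16 in 3D (median 0.42) and 14 of 16 in 2D (median 0.18). Of all genes, 52.0% in 3D and 50.3% in 2D were below 0. After rescaling to a common sum, 12 of the 16 (median 0.30) and 9 (median 0.04) were above 0. In 3D culture, where PSMB8 and PSMB10 rose, TAP1, TAP2, JAK1 and JAK2 were among the genes of this list that fell, and IFNGR2, a chain of the interferon gamma receptor, rose by 0.78 (limma adjusted p = 0.0194). TAP1 and TAP2, the peptide transporter encoded beside PSMB8 and PSMB9, were at 21.7, 20.3, 31.4 and 32.01 FPKM and 11.5, 6.88, 19.6 and 15.3 FPKM. In 3D, TAP1 fell by 0.57 and TAP2 fell by 0.89 (limma adjusted p = 0.0256 and 0.0138). The kinase JAK1 fell by 0.85 and JAK2 fell by 0.58 (limma adjusted p = 0.0133 and 0.0411). TAP1 and TAP2 were thus lower in both 3D libraries than in both 2D libraries, the opposite of PSMB8 and PSMB10. IRF1, at 7.204, 11.1, 5.85 and 7.28 FPKM, was highest in 3D hypoxia, where PSMB10 was also highest, and did not pass.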

How the data were processed

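RNA was measured in 4 A549 libraries. Per the labels' protocols, RNA came from a miRNeasy Micro kit and libraries from a TruSeq Stranded mRNA kit. Values are FPKM as deposited by the authors, 1 per symbol and library. Cuffdiff 2.2.1, TopHat2 2.1.1, SAMtools 0.1.18, Bowtie2 2.2.8 and build hg19 are named, per the submitters' processing notes. The sources used here do not state the annotation, library scaling, use of strand or depth. No counts were used. Nothing in the labels says whether libraries came from separate cultures. The p-values do not measure spread between replicates. The only residual of the limma fit is how far a gene's hypoxia response differed between the culture types. Its variance was moderated over all genes tested.

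Levels were taken as log2(FPKM + 1), which understates differences of low genes, over the 12663 genes whose mean reached 1 FPKM. Pairwise ratios had no test and were described by size, at least 25% higher or 20% lower on the FPKM + 1 scale, and 2-fold. Average effects were fitted with limma 3.58.1 in R 4.3.3 (trend, oxygen and culture as additive terms, 1 residual and 4.67 prior degrees of freedom) over all 12663 genes, with Benjamini-Hochberg adjustment at 0.05. The fit was run on simulated data drawn to its own assumptions, which cannot check whether these data meet them. Depth was inferred from the commonest low FPKM among 2135 genes with 1 transcript, taken as 1 fragment, with GENCODE 29 lengths, an annotation of another build used for lengths only. The rest was computed with pandas 2.3.3, numpy 2.4.6 and matplotlib 3.10.9 (Python 3.11.15). Promoter windows came from RefSeq (GRCh38.p14).

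Members, gene lists and sizes were chosen with earlier results of these data known. Any member could be named. The result of 1 gene of the interferon list is not reported here. Values in every library were given for immunoproteasome, activator (PSME), inhibitor and assembly genes, PSMB5, PSMB6, PSMB7 and called genes. They were also given for the 3 highest and 3 lowest other core and 19S genes in each pair. PSMA5 and PSMD14 were given in every library outside these rules. From the other lists, called genes and up to 4 with the largest ratios could be named. POMP, ADRM1, VCP, NFE2L2, IRF1, CD14 and EPCAM were named for their function after their values were seen. Alternatives were another pseudocount, another minimum or none, other library scalings, no trend, and leaving out small RNA genes and genes at 0 in a library.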

Additional observations from a re-analysis of the deposited data

Results flagged for a closer look

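Of the 46 members, 5 had hypoxia ratios of opposite sign in 3D and 2D, and for 2 of them both ratios exceeded 2 counting errors. Below 0 in both cultures were 33 members (36.7% of all genes) and above 0 in both 8 (34.2% of all genes). Opposite signs were thus less common among members than among all genes. The 2 beyond counting errors were PSMD5, with a response in 3D minus that in 2D of -0.502, and PSMA3, with -0.353. After rescaling to a common sum the ratios of PSMD5 were below 0 in both cultures and those of PSMA3 still differed in sign. For 17 members the ratios of 3D to 2D had opposite signs in normoxia and hypoxia. No share over all genes is given for this count, so it cannot be called common or rare. Of the 17, 5 exceeded 2 counting errors in both. For these the ratio in hypoxia minus that in normoxia was -0.309 for PSMB2, -0.277 for PSMB3, -0.239 for PSMD14, -0.193 for PSMD7 and -0.186 for PSMA7. After rescaling to a common sum all 5 were below 0 at both oxygen levels. With 1 library per group none of these differences was tested.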

How the results depend on the processing

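No paired analysis was possible because with 1 library in each group there are no replicate numbers to pair by, although the limma effect of hypoxia is itself taken within each culture. Leaving out 1 library leaves the limma fit no residual degree of freedom. No called result changed sign under the alternatives run. With no filter on low values limma called 0 genes of 26255 in either effect (2812 and 4518 at an unadjusted p under 0.05), and of the members 0 rose and 0 fell with culture. After rescaling each library to a sum of 1000000, 1 member was called lower under hypoxia (475 of all 12663 genes were). With culture 1 was then called higher and 2 lower (767 and 3132 of all genes). When small RNA genes and genes at 0 were left out, 1 member was lower under hypoxia (531 of 12550 genes). In that setting 5 were higher with culture (1750 of 12550 genes). The calls of PSMB8, PSMB10, PSMF1 and PSMD2 were lost with no filter (limma adjusted p = 0.258, 0.265, 0.258 and 0.312).

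On the common sum, members at least 25% higher and at least 20% lower were 0 and 27 for hypoxia in 3D, 0 and 13 in 2D, 2 and 7 for culture in normoxia, and 2 and 13 in hypoxia, beside the shares of all genes on that scale given with each comparison. Medians there for the alpha, beta and inhibitor genes were -0.35, -0.40 and -0.0986 for hypoxia in 3D, -0.18, -0.19 and 0.0031 in 2D, -0.0623, -0.0456 and 0.31 for culture in normoxia, and -0.21, -0.20 and 0.21 in hypoxia. The lid moved to -0.38 and -0.29 for hypoxia in 3D and 2D, the 19S chaperones to -0.00226 for hypoxia in 2D and 0.0944 for culture in normoxia, and the 20S assembly genes to -0.16 for culture in normoxia. With a pseudocount of 0.1, log2 levels were -3.14 for PSMB8 against PSMB5 in 2D hypoxia, and -4.42 and -3.92 for PSMB9 against PSMB6 in 2D normoxia and 2D hypoxia. The cause of these shifts was not tested. The other 185 recomputed values of results that answer a comparison moved by less than their limits. For a median the limit was the standard deviation over the group's genes, or a fixed value for the inhibitor. For a count it was a fixed fold, and for a pair the counting error. Some medians within these limits still changed sign on the common sum. For culture in normoxia they went from 0.10 to -0.10 for all members and from 0.03 to -0.17 for the lid. For culture in hypoxia they went from 0.10 to -0.09 for activators and likewise from 0.10 to -0.09 for 20S assembly genes. The 19S chaperones went from 0.09 to -0.04 for hypoxia in 3D. Depth limits PSMB9 and PSMG4 most.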

Other observations

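PSMC4, the member with the largest hypoxia ratio, lies between FCGBP, a mucus protein gene, and ZNF546 in RefSeq. FCGBP was at 27.3, 2.21, 3.72 and 0.200 FPKM and ZNF546 at 1.38, 1.44, 1.59 and 1.65 FPKM, against 226, 105, 149 and 107 FPKM for PSMC4. FCGBP and PSMC4 were both highest in 3D normoxia and lower in hypoxia in each culture, and ZNF546 was not. These neighbours were looked at after the values of PSMC4 were seen, and the relation was not tested.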
